A study of Homo sapiens with 4 samples.

Results

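Responses to knockdown of the long non-coding RNA LINC01291 were compared between A375 and SK-MEL-28, established BRAF-mutant human melanoma cell lines. Each line was treated with siNC, by its name a negative control siRNA, or with siLINC01291, an siRNA against LINC01291, and each of the 4 groups is 1 library of cultured cells. The cells were grown in DMEM with serum per the labels; EL, a term in the treatment label, has no explanation there, and it may be shared by all 4 groups. For every gene, the response in a line is the log2 ratio of the siLINC01291 library to the siNC library, from counts scaled by library size with a prior count of 2. The difference is the SK-MEL-28 response minus the A375 response, so a positive value means a response that was higher in SK-MEL-28. It was taken for 10988 of the 18175 listed genes, those whose FPKM reached 1 in 1 or both libraries of each line. With 1 library per group there is no replicate and no p-value. Intervals are exact 95% intervals of the ratio of ratios and cover counting error only, and no value shows how far repeated cultures would spread.

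Of the gene lists compared, that of the integrated stress response had the highest median difference. In this pathway, kinases that sense amino acid shortage, unfolded proteins, haem shortage or double-stranded RNA phosphorylate the initiation factor eIF2, which lowers bulk translation while translation of the transcription factor ATF4 goes up. ATF4 and its partners of the C/EBP family then raise genes of amino acid uptake, serine and one-carbon metabolism and tRNA charging, often through a composite C/EBP-ATF response element, together with CHAC1, which breaks down glutathione. The antioxidant programme of NRF2, which includes SRXN1, also serves glutathione and thiol chemistry, and in melanoma both programmes have been studied for their part in survival under stress.

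Depth was between 29351240 and 31815336 counts per library. LINC01291 (ENSG00000204792, a lincRNA at chromosome 2, 74918148 to 74938418, GRCh38) stood at a CPM (counts scaled to the library total) of 26.8 with siNC and 9.56 with siLINC01291 in A375, and at 33.9 and 15.5 in SK-MEL-28. It was lower with siLINC01291 in both lines, by 1.48 and 1.13 on the log2 scale, so that 35.8% and 45.7% of the siNC level were left (difference 0.35, interval 0.10 to 0.61). The lines themselves differed in the markers of melanoma state. The summed FPKM of 8 melanocyte and melanoma markers was 93.0 and 133 in the siNC and siLINC01291 libraries of A375, and 1617 and 1936 in those of SK-MEL-28. The 3 markers of a dedifferentiated state (AXL, NGFR and SOX9) summed to 176 and 172 in A375 and to 2.13 and 1.67 in SK-MEL-28. Of 12 markers of keratinocytes, fibroblasts, leukocytes and endothelial cells, 1 was listed (KRT14, FPKM 6.16 and 7.32 in A375 and at most 0.0451 in SK-MEL-28).

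Responses spread more widely in SK-MEL-28 than in A375. Across genes the SD was 0.29 (A375) and 0.36 (SK-MEL-28), and 126 and 274 genes, respectively, stood at least 2-fold away from their siNC level. The median difference was -0.01, and the central 95% of genes lay between -0.67 and 0.71. A difference of at least 2-fold in favour of SK-MEL-28 was found in 107 genes (0.974% of those measured), and one in favour of A375 in 94 genes (0.855%). The threshold falls in dense ground, with a Y_RNA copy at 1.00 and ENSG00000270983 at 0.9997 on the upper side, and HTRA1 at -1.0019 and PEG10 at -0.9976 on the lower side.

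Much of that total was made of scarce transcripts. Of the 107 genes, 42 are small RNAs and 17 are pseudogenes, 59 had at most 10 counts in some library, and for 50 the counting interval excluded 0. The 94 genes on the lower side held 23 small RNAs and 29 pseudogenes, and for 55 the interval excluded 0. Protein-coding genes made up 27 and 30 of the 2 groups. Among the 6180 genes whose FPKM reached 5 in both lines, 18 (0.291%) and 12 (0.194%) passed the 2-fold limits. The widest difference of all, 7.32, belonged to the pseudogene NSFP1 (59 and 7 counts in A375, 3 and 112 in SK-MEL-28; named after its values were seen), which can share reads with its parent gene NSF and is uncertain.

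**Figure D1:**
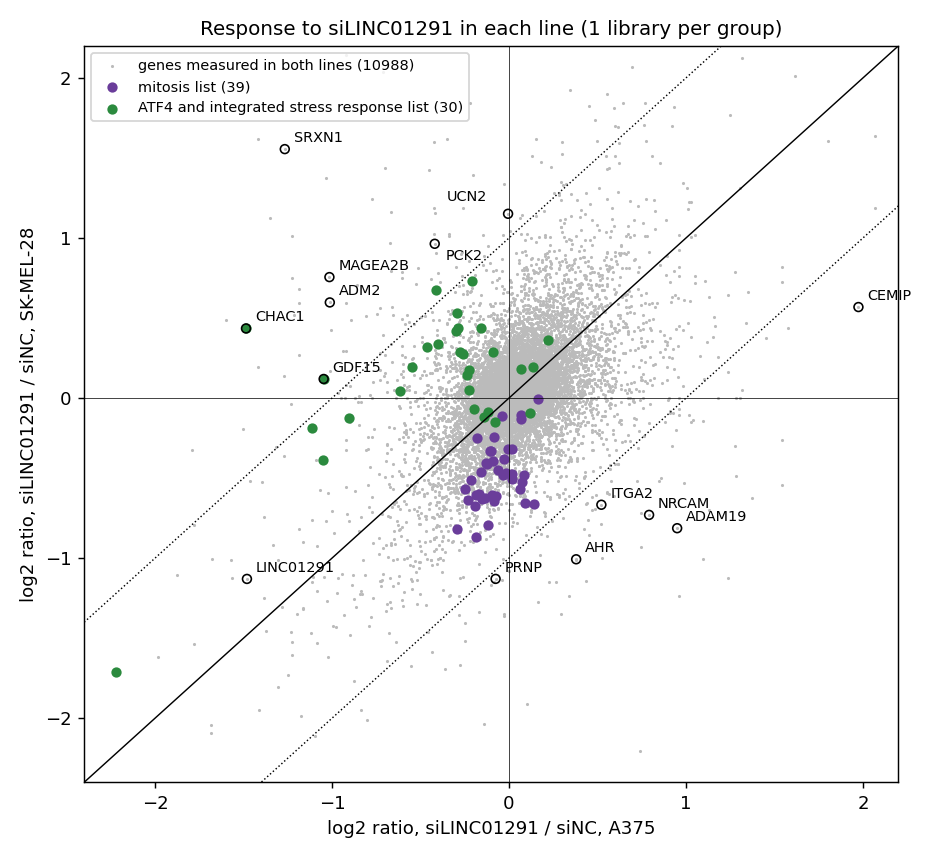
Response to siLINC01291 (log2 ratio to siNC) in A375 on the x axis and in SK-MEL-28 on the y axis, 1 point per gene over 10988 genes; the solid line marks equal responses and the dotted lines a 2-fold difference, and 1 gene (NSFP1) lies outside the range drawn. Genes of the ATF4 list (green, 30) lie mostly above the solid line, all 39 mitosis genes (purple) lie below it, and SRXN1 and CHAC1 lie far to the upper left.

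SRXN1, which codes for sulfiredoxin, the enzyme that repairs over-oxidised peroxiredoxins, went in opposite directions and showed the widest difference of the protein-coding genes. It was counted at a CPM of 5.31 with siNC and 2.17 with siLINC01291 in A375, and at 4.42 and 13.1 in SK-MEL-28. The siNC libraries of the lines stood close together, and the siLINC01291 libraries were the lowest and the highest of the 4. The response was -1.27 in A375 and 1.56 in SK-MEL-28, a difference of 2.82 (interval 2.35 to 3.38). SRXN1 (ENSG00000271303) lies on the minus strand of chromosome 20 from 646615 to 653370 (GRCh38).

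CHAC1, a gamma-glutamyl cyclotransferase that degrades glutathione and a well-known ATF4 target, came next. Its CPM was 30.1 with siNC and 10.7 with siLINC01291 in A375, and 5.78 and 7.84 in SK-MEL-28. The A375 siNC library stood far above the other 3, so that the lines were further apart with siNC than with siLINC01291. A375 had a response of -1.49 and SK-MEL-28 of 0.44, a difference of 1.92 (interval 1.58 to 2.28). CHAC1 (ENSG00000128965) lies on the plus strand of chromosome 15 from 40952962 to 40956519 (GRCh38). Whether the wide step in A375 belongs to the siNC or the siLINC01291 library cannot be told apart with 1 library each.

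Moves of at least 1.5-fold in opposite directions were rare. In 22 genes (0.2%) the response was lower in A375 and higher in SK-MEL-28, and in 11 genes (0.1%) it was the reverse; at an FPKM of 5 these counts were 3 (0.0485%) and 0 (0.0%). Only 4 of the 22 are protein-coding. Beside SRXN1 these are ADM2, which codes for the peptide hormone intermedin, TAF10, a subunit of the TFIID and SAGA complexes, and MAGEA2B, a cancer-testis antigen. ADM2 and TAF10 were named after their values were seen.

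ADM2 had a CPM of 9.20 and 4.53 in A375 (siNC, then siLINC01291) and of 5.27 and 8.01 in SK-MEL-28, with responses of -1.01 and 0.60 and a difference of 1.61 (interval 1.20 to 2.05). TAF10 stood at 8.71 and 5.44 in A375 and at 4.79 and 9.44 in SK-MEL-28, a difference of 1.64 (interval 1.24 to 2.07). MAGEA2B stood at 13.2 and 6.48 in A375 and at 1.87 and 3.20 in SK-MEL-28, a difference of 1.77 (interval 1.24 to 2.36); near-identical copies exist and its counts are uncertain. In each of these genes the siLINC01291 library was the lower of the pair in A375 and the higher in SK-MEL-28.

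The 11 genes of the reverse kind include 2 protein-coding genes, ADAM19, a membrane metalloproteinase, and NRCAM, a cell adhesion molecule of the immunoglobulin family. ADAM19 had a CPM of 17.4 and 33.7 in A375 and of 17.2 and 9.74 in SK-MEL-28. The siNC libraries were nearly level, and the siLINC01291 libraries were the highest and the lowest (responses 0.95 and -0.81, difference -1.76, interval -2.03 to -1.51). The gene overlaps CYFIP2 on the other strand, and the strand setting of the counting was not given. NRCAM went from 16.4 to 28.4 in A375 and from 117 to 70.6 in SK-MEL-28 (difference -1.52, interval -1.70 to -1.35), and both SK-MEL-28 libraries stayed above both A375 libraries.

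**Figure D2:**
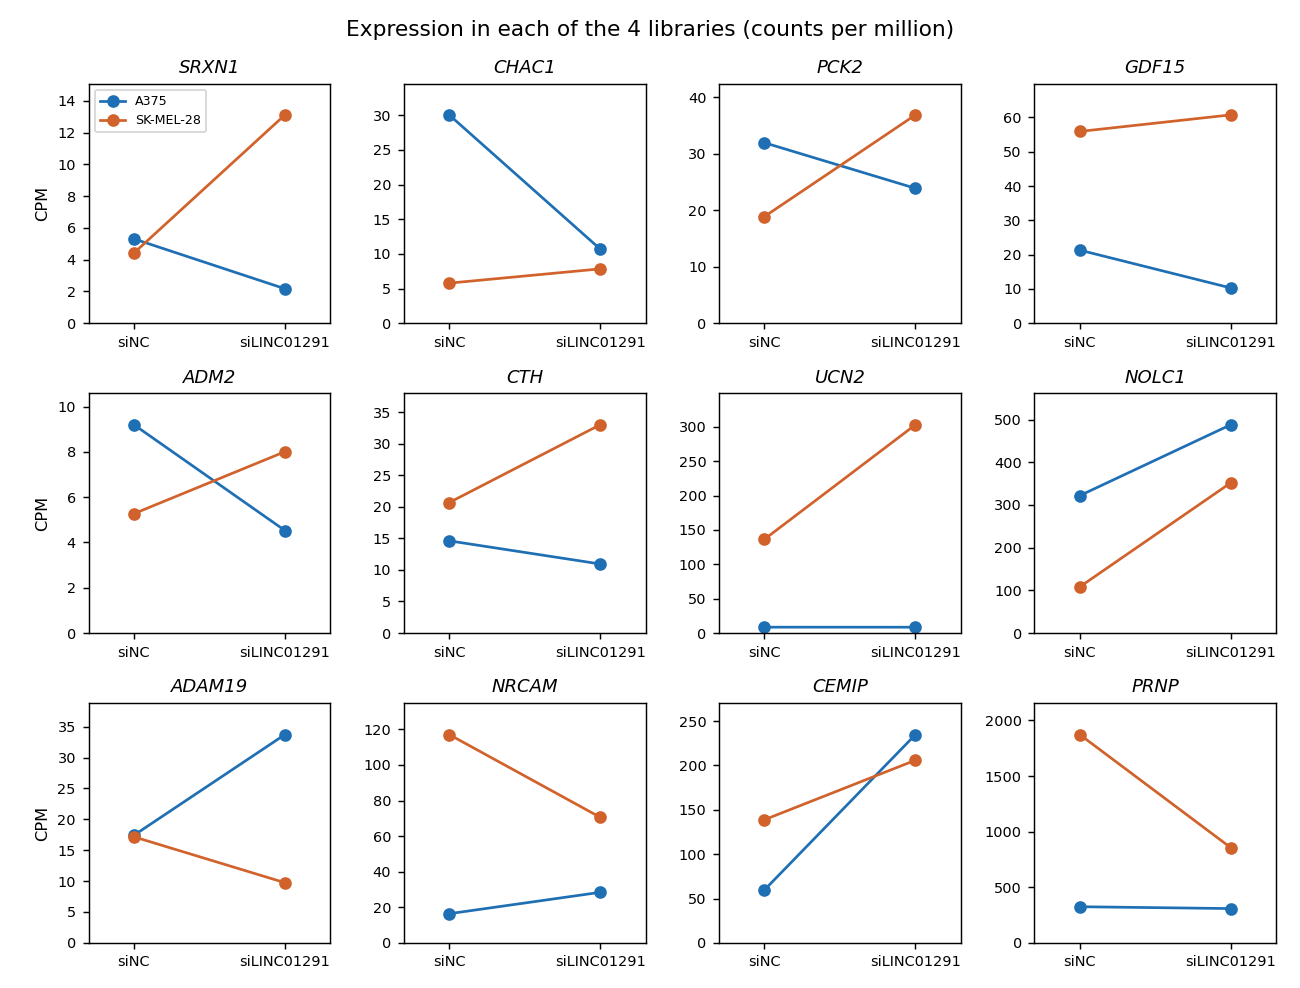
CPM (y axis, from 0) of 12 genes in the siNC and siLINC01291 libraries (x axis), with blue for A375 and orange for SK-MEL-28; each point is 1 library and no error can be drawn. The lines run in opposite directions for SRXN1 (5.31 to 2.17 against 4.42 to 13.1), CHAC1, PCK2, ADM2, CTH, ADAM19 and NRCAM. They also do for GDF15, with a small rise in SK-MEL-28 (55.9 to 60.8), whereas UCN2 and PRNP move in SK-MEL-28 and little in A375.

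The list of ATF4 and integrated stress response genes held 30 measured members. Their median response was -0.27 in A375 and 0.19 in SK-MEL-28, against 0.04 and 0.03 over all measured genes, and their median difference was 0.58. The difference was above 0 in 28 of 30 members (47.6% of all measured genes) and at least 1.5-fold in 15 (3.9%), while no member had a difference of 1.5-fold the other way (3.62%). In 18 members the response was below 0 in A375 and above 0 in SK-MEL-28 (16.1% of all genes). The counting interval lay above 0 for 24 members (2099 of 10988 over all genes) and below 0 for 1, EIF2AK4.

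Among the 12 regulators, the median difference was 0.47. ATF4 itself had a CPM of 414 and 347 in A375 and of 287 and 347 in SK-MEL-28 (difference 0.53, interval 0.48 to 0.59). With scaling by library size only, the siLINC01291 libraries of the lines stood level and the siNC libraries did not. TRIB3, a pseudokinase that ATF4 induces and that dampens it, went from 102 to 88.5 in A375 and from 58.4 to 96.9 in SK-MEL-28 (difference 0.94, interval 0.82 to 1.05). DDIT3, the stress factor CHOP, went from 8.19 to 6.66 in A375 and from 8.26 to 11.99 in SK-MEL-28 (difference 0.83, interval 0.47 to 1.20); it overlaps MARS1 on the other strand. CEBPB and CEBPG, bZIP partners of ATF4, both had a difference of 0.78, with responses of -0.90 and -0.12 for CEBPB and of -0.46 and 0.32 for CEBPG. PPP1R15A, the stress-induced eIF2 phosphatase subunit, had responses of -0.16 and 0.44. The 3 measured eIF2 kinases stood lower. EIF2AK1 stood at a difference of 0.05 and EIF2AK2 at -0.07 with intervals that include 0, and EIF2AK4, the amino acid sensor GCN2, at -0.21 (interval -0.29 to -0.13).

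The 13 targets of amino acid metabolism and transport all had a difference above 0 (47.6% of all genes), with a median of 0.66. The serine synthesis enzymes moved in step. PSAT1 stood at a CPM of 530 and 363 in A375 and at 242 and 276 in SK-MEL-28 (difference 0.74), PHGDH at 281 and 232 against 454 and 555 (0.56), and PSPH at 58.5 and 47.5 against 58.2 and 77.7 (0.72). In all of them the siLINC01291 library was the lower in A375 and the higher in SK-MEL-28. In mitochondrial one-carbon metabolism, MTHFD2 had responses of -0.61 and 0.05 and ALDH1L2 of -1.11 and -0.19. CTH, which makes cysteine from cystathionine, went from 14.6 to 10.9 in A375 and from 20.7 to 33.0 in SK-MEL-28 (difference 1.09, interval 0.84 to 1.35). Of the transporters, the glutamine carrier SLC1A5 had responses of -0.40 and 0.34, while the cystine importer SLC7A11 was lower with siLINC01291 in both lines (responses -2.22 and -1.71, difference 0.51).

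The 5 other targets had a median difference of 0.66. GDF15, a secreted stress cytokine, had a CPM of 21.3 and 10.3 in A375 and of 55.9 and 60.8 in SK-MEL-28. It was lower with siLINC01291 in A375 and close to siNC in SK-MEL-28 (responses -1.05 and 0.12, difference 1.17, interval 0.95 to 1.39). SESN2, a leucine sensor that restrains mTORC1, had responses of -0.29 and 0.44. VLDLR, a lipoprotein receptor, had responses of -1.05 and -0.39 and so was lower in both lines. PCK2, mitochondrial phosphoenolpyruvate carboxykinase, is not on the list but had the highest difference of the protein-coding genes whose FPKM reached 5 in both lines. Its CPM was 31.9 and 23.9 in A375 and 18.9 and 36.9 in SK-MEL-28 (difference 1.38, interval 1.18 to 1.59). A375 was thus the higher line in the siNC libraries and SK-MEL-28 in the siLINC01291 libraries.

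**Figure D3:**
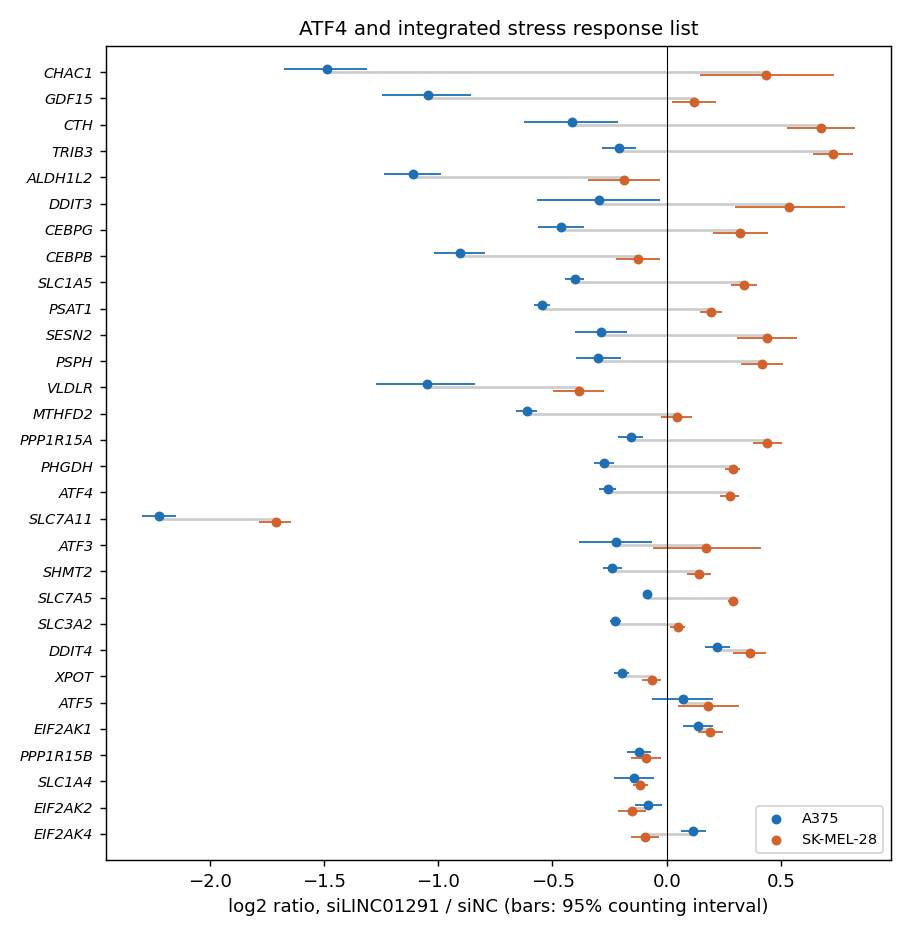
Response (x axis, log2 ratio of siLINC01291 to siNC) of the 30 measured genes of the ATF4 list in A375 (blue) and SK-MEL-28 (orange), ordered by their difference, with bars for 95% counting intervals. The orange point lies to the right of the blue one in 28 of 30 genes, from CHAC1 at the top (difference 1.92) to EIF2AK4 at the bottom (-0.21).

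Transfer RNA synthetases, which charge tRNAs and include many ATF4 targets, showed a smaller shift of the same direction. Of 20 measured cytosolic synthetases 17 had a difference above 0 (47.6% of all genes), 10 stood below 0 in A375 and above 0 in SK-MEL-28 (16.1%), and the median difference was 0.21. CARS1 had the highest (responses -0.38 and 0.32, difference 0.70, interval 0.58 to 0.82), followed by GARS1 at 0.59 and SARS1 at 0.56. GARS1 had a CPM of 434 and 327 in A375 and of 445 and 505 in SK-MEL-28. With scaling by library size only, the lines were near each other with siNC and further apart with siLINC01291. The 21 initiation factors had a median difference of 0.05. Among them EIF4EBP2, a translational repressor, stood at -0.70 and was lower with siLINC01291 in both lines (responses -0.38 and -1.08).

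Promoter windows of 300 bases (250 before to 50 after the start site, RefSeq, GRCh38.p14) were searched on both strands for TGATGNAA, the core of the C/EBP-ATF response element. The word was found in 3.62% of 35116 promoters. Counted by gene, it was found in 2.49% of 8002 measured genes, in 7 of 25 matched genes of the ATF4 list and in 7 of 16 matched synthetases. The matches below are shown because they lie in genes whose responses differed between the lines, each as 30 bases on the strand that holds the word, with the word in capitals.
CHAC1: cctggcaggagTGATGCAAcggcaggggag
CEBPG: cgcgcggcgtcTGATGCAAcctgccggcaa
SLC1A5: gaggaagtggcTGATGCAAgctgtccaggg
CARS1: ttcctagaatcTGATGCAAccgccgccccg
GARS1: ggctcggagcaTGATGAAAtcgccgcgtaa
MARS1: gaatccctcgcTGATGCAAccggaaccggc
They lie at chr15:40953251-40953280 (minus strand) for CHAC1, chr19:33374060-33374089 (plus) for CEBPG, chr19:46784893-46784922 (minus) for SLC1A5, chr11:3057407-3057436 (plus) for CARS1, chr7:30594834-30594863 (minus) for GARS1 and chr12:57488053-57488082 (minus) for MARS1. Matches not shown include those of PPP1R15B and SLC1A4 (both 0.03) and IARS1 (0.06), whose differences were near 0. A match did not go with a larger difference within the ATF4 list. The median difference was 0.40 in the 7 genes of the ATF4 list with the word and 0.63 in the others, and 0.35 and 0.14 in the synthetases with and without it. Over all 8002 measured genes with a promoter in the table, it was -0.01 with the word and -0.02 without.

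The wider NRF2 programme did not follow SRXN1. Of 36 measured members, 18 had a difference above 0 and 18 below, with a median of -0.01, and SRXN1 alone reached 2-fold (0.974% of all genes did). TXNRD1, thioredoxin reductase, had a CPM of 1408 and 895 in A375 and of 1158 and 780 in SK-MEL-28, lower with siLINC01291 in both lines by like amounts (difference 0.08, interval 0.05 to 0.12). GCLM, a subunit of the enzyme that starts glutathione synthesis, stood at a difference of 0.06 and the haem-degrading HMOX1 at 0.19. NQO1, a quinone reductase, had responses of 0.13 and -0.38, and MAFF, a small MAF partner of NRF2, of -0.05 and 0.75. SRXN1 was therefore an exception on its own list.

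Factors of the early response pair with each other in AP-1 and react to growth and stress signals. Of 19 measured members 12 had a difference above 0 (47.6% of all genes), 8 stood below 0 in A375 and above 0 in SK-MEL-28 (16.1%), and the median difference was 0.20. FOSB had a CPM of 73.5 and 55.4 in A375 and of 6.66 and 12.5 in SK-MEL-28. The A375 level stayed above the SK-MEL-28 level throughout (difference 1.31, interval 1.05 to 1.59), and FOSB overlaps ERCC1 on the other strand. FOS followed at 0.88 and IER2 at 0.72. MYC stood at 23.8 and 19.3 in A375 and at 153 and 174 in SK-MEL-28, a difference of 0.49.

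In the mitosis list all 39 measured members had a difference below 0 (52.4% of all genes), and 6 were at least 1.5-fold lower in SK-MEL-28 (3.62%), none higher. Median responses were -0.08 (A375) and -0.48 (SK-MEL-28), and the median difference was -0.42. The counting interval lay below 0 for 36 members (2629 of 10988 over all genes). ASPM, a spindle pole protein, had a CPM of 343 and 378 in A375 and of 277 and 175 in SK-MEL-28 (difference -0.80, interval -0.87 to -0.74). TOP2A, the topoisomerase that untangles replicated chromosomes, went from 648 to 690 in A375 and from 393 to 250 in SK-MEL-28 (difference -0.75, interval -0.80 to -0.69). In both, the SK-MEL-28 siLINC01291 library was the lowest of the 4.

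The roles within the list did not stand apart. The 13 cyclins and kinases had a median difference of -0.42, the 12 kinesins and spindle genes of -0.42 and the 14 kinetochore and exit genes of -0.40. CCNA2, cyclin A, which overlaps EXOSC9 on the other strand, stood at -0.68 (responses -0.18 and -0.87) and KIF20A, a kinesin of cytokinesis, at -0.67. CDK1, the main mitotic kinase, had responses of -0.07 and -0.61, PLK1 of -0.19 and -0.67, AURKA of -0.29 and -0.82 and CCNB1 of -0.18 and -0.61. MKI67, the proliferation marker, had a CPM of 907 and 955 in A375 and of 697 and 484 in SK-MEL-28. The intervals of AURKB and MASTL (both -0.07) and of CENPA (-0.17), a histone of the centromere, include 0. In bulk RNA, fewer cells in mitosis and less RNA of these genes per cell cannot be told apart.

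Genes of DNA replication did not go with those of mitosis. The 40 measured members had median responses of -0.10 (A375) and -0.02 (SK-MEL-28), a median difference of 0.06, and none was 1.5-fold apart between the lines (3.9 and 3.62% of all genes were). The 16 licensing and helicase genes stood at a median of 0.18, with 8 of them below 0 in A375 and above 0 in SK-MEL-28 (16.1% of all genes). ORC6, of the origin recognition complex, had responses of -0.19 and 0.26, and CDC6, which loads the helicase, of -0.15 and 0.28. UNG, a uracil glycosylase, had the highest difference of the list at 0.47.

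**Figure D4:**
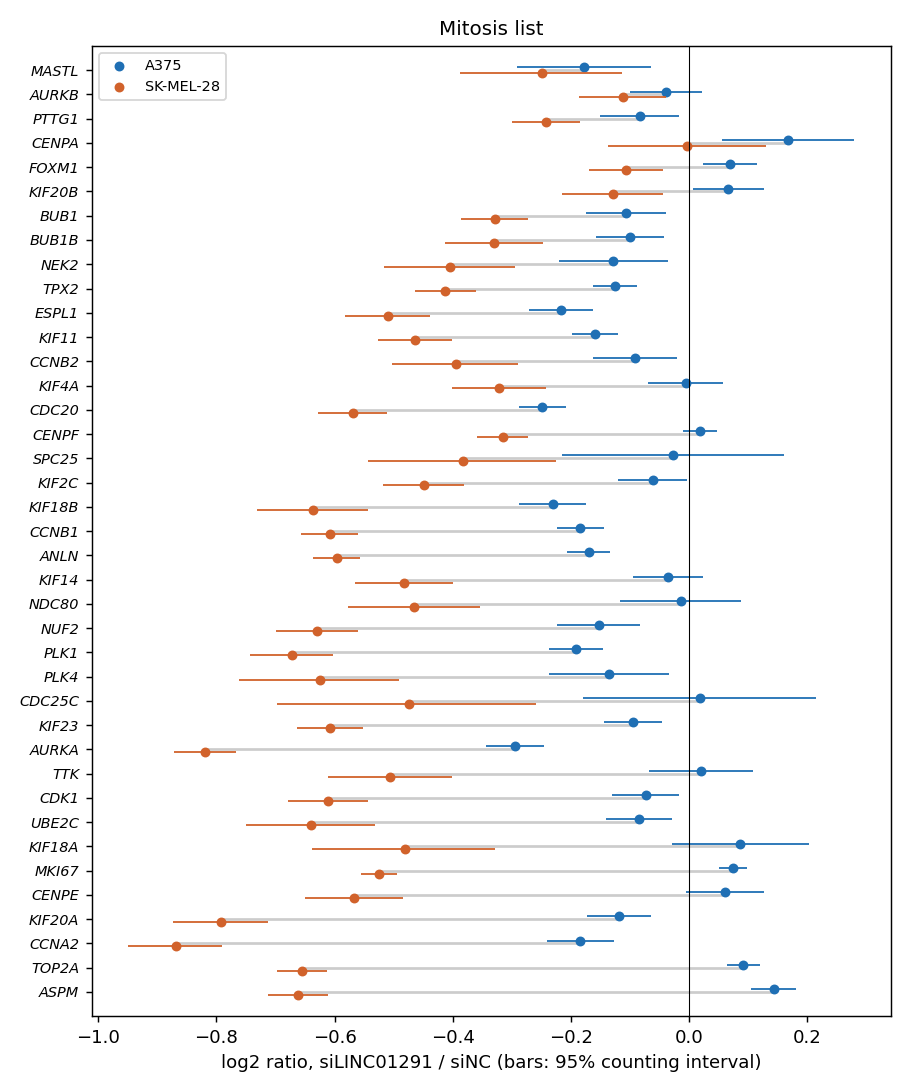
Response (x axis, log2 ratio of siLINC01291 to siNC) of the 39 measured mitosis genes in A375 (blue) and SK-MEL-28 (orange), ordered by their difference, with bars for 95% counting intervals. The orange point lies to the left of the blue one in all 39 genes, and the widest gap is that of ASPM (-0.80).

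Promoters of mitotic genes often carry the cell cycle genes homology region, TTTGAA, which is bound by the DREAM complex and by MuvB with its partners. TTTGAA was found, on either strand, in 15.2% of the 35116 promoters. Counted by gene, it was found in 13.0% of 8002 measured genes and in 25 of the 34 matched mitosis genes. The examples below are shown because their genes carry the list's difference, with the word in capitals.
CDK1: gagtataataaaTTTGAActgtgccaatgc
PLK1: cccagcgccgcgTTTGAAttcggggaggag
MKI67: ttagcgccagaaTTTGAAtcttcgttttcg
KIF23: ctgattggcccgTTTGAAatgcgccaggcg
TOP2A: cgagtggtgcctTTTGAAgcctctctagtc
They lie at chr10:60778158-60778187 (plus) for CDK1, chr16:23678848-23678877 (plus) for PLK1, chr10:128126453-128126482 (minus) for MKI67, chr15:69414282-69414311 (plus) for KIF23 and chr17:40418073-40418102 (minus) for TOP2A. The median difference was -0.43 in the mitosis genes with TTTGAA and -0.39 in those without, and -0.06 and -0.01 over all measured genes.

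Shifts in SK-MEL-28 only, at least 2-fold there and less than 25% above or 20% below siNC in A375, were found upwards in 38 genes (0.346%) and downwards in 24 (0.218%). At an FPKM of 5 there were 6 each way (0.0971%). Of the upward ones 14 are protein-coding. UCN2, a peptide hormone of the corticotropin-releasing factor family, had a CPM of 8.52 and 8.49 in A375 and of 136 and 303 in SK-MEL-28. It was level in A375 and higher with siLINC01291 in SK-MEL-28 (difference 1.16, interval 0.90 to 1.41). It overlaps PFKFB4 on the same strand, so its reads are uncertain. TMEM164, an acyltransferase of ether lipid metabolism, had responses of 0.31 and 1.09, TCF3, an E protein transcription factor, of 0.30 and 1.07, and POLR2D, a subunit of RNA polymerase II, of 0.30 and 1.07. These 3 were thus also above siNC in A375, and their differences lay between 0.77 and 0.78.

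All 9 protein-coding genes of the downward class are named here, of which TGFA, RDH10, KHDRBS3 and ENC1 were named after their values were seen. PRNP, the prion protein, was the most abundant, with a CPM of 325 and 308 in A375 and of 1873 and 856 in SK-MEL-28 (difference -1.05, interval -1.10 to -1.01). SK-MEL-28 stayed above A375 in both conditions. UBASH3B, a tyrosine phosphatase, had responses of -0.17 and -1.04, PPID, the chaperone cyclophilin 40, of -0.28 and -1.12, and SLC18B1, a polyamine transporter, of -0.26 and -1.12. BIRC3, an inhibitor of apoptosis, went from 11.8 to 9.68 in A375 and from 8.26 to 2.56 in SK-MEL-28 (difference -1.39, interval -1.87 to -0.97). RDH10, KHDRBS3 and ENC1 had SK-MEL-28 responses between -1.41 and -1.13, TGFA of -1.0049, and A375 responses between -0.28 and -0.03. All 9 were thus also below siNC in A375, and the A375 counting interval included 0 only for KHDRBS3 and TGFA. TGFA, an EGFR ligand, was scarce in SK-MEL-28 (CPM 6.42 and 3.17) and abundant in A375 (184 and 180).

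Shifts in A375 only were fewer, 14 upwards (0.127%) and 9 downwards (0.0819%), of which 0 (0.0%) and 2 (0.0324%) reached an FPKM of 5. The protein-coding ones are GDF15 and ALDH1L2 on the lower side, both described above, and SHC4, XYLT1 and DBNDD1 on the higher side, which were named after their values were seen. SHC4, an adaptor of receptor tyrosine kinases, had a CPM of 4.53 and 11.3 in A375 and of 54.5 and 54.6 in SK-MEL-28 (difference -1.30, interval -1.62 to -1.01); it overlaps EID1 on the other strand. XYLT1, which starts glycosaminoglycan chains, stood at 33.3 and 67.3 in A375 and at 31.0 and 28.8 in SK-MEL-28. DBNDD1 had responses of 1.08 and 0.26.

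Other genes were higher with siLINC01291 in both lines and by more in SK-MEL-28. RGS19, which shortens G protein signals, had a CPM of 16.1 and 26.2 in A375 and of 3.33 and 14.2 in SK-MEL-28 (difference 1.37, interval 1.03 to 1.76). OGFR, the opioid growth factor receptor, went from 96.5 to 135 and from 29.5 to 98.7 (difference 1.252, interval 1.12 to 1.38). NOLC1, a nucleolar chaperone of small nucleolar ribonucleoproteins, went from 322 to 488 and from 108 to 352 (difference 1.10, interval 1.03 to 1.17). CHST14, a dermatan sulfotransferase, and BICD2, a dynein adaptor, stood at 1.08 and 0.94. In all of these the SK-MEL-28 siNC library was the lowest of the 4. COMMD6, in contrast, had responses of -0.40 and 0.78 and so moved apart (difference 1.18, interval 0.92 to 1.45). NOLC1 was an exception in its list: the 42 measured genes of ribosome biogenesis had a median difference of 0.10, and NOLC1 alone passed 1.5-fold upwards.

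Of the 15 lowest differences among genes whose FPKM reached 5 in both lines, 4 belong to a gene list (CEMIP, ITGA2, IGSF3 and ERBB3). CEMIP, a hyaluronan-degrading protein, had a CPM of 59.7 and 235 in A375 and of 139 and 206 in SK-MEL-28. It was higher in both lines, and with scaling by library size only the A375 libraries were both the lowest and the highest (difference -1.41, interval -1.50 to -1.31). It overlaps MESD on the other strand. ITGA2, the collagen-binding integrin alpha 2 subunit, went from 77.7 to 112 in A375 and from 44.7 to 28.1 in SK-MEL-28 (difference -1.19, interval -1.34 to -1.04). IGSF3, a membrane protein of the immunoglobulin family, was lower in both lines (CPM 118.8 and 73.6 in A375, 589 and 188.5 in SK-MEL-28; difference -0.95, interval -1.04 to -0.87). POU3F2 (BRN2), a transcription factor of invasive melanoma, had responses of 0.44 and -0.66, and CDKN1B, the CDK inhibitor p27, of 0.44 and -0.65. ERBB3, a neuregulin receptor, had a CPM of 180 and 313 in A375 and of 110 and 98.8 in SK-MEL-28 (difference -0.95, interval -1.03 to -0.86). AHR, the aryl hydrocarbon receptor, named after its values were seen, went from 53.7 to 69.9 in A375 and from 33.8 to 16.8 in SK-MEL-28 (difference -1.39, interval -1.57 to -1.21).

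Further genes of that end had a common pattern. ABHD17C, ARNT2, HTRA1, SAT1, TNFRSF19 and INPP5F had A375 responses between 0.61 and 0.93 and SK-MEL-28 responses between -0.41 and -0.08. HTRA1, a secreted serine protease, had a CPM of 6.41 and 12.1 in A375 against 69.4 and 65.0 in SK-MEL-28. SAT1, which acetylates polyamines, stood at 16.7 and 31.4 against 165 and 156. Both were far more abundant in SK-MEL-28 than in A375 in every library.

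Of 13 integrins 11 had a difference below 0 (52.4% of all genes), with a median of -0.22. ITGA6 had responses of 0.43 and -0.46, and ITGB8 of 0.67 and 0.03. Of 27 genes of matrix and its proteases 21 lay below 0 and 11 stood above 0 in A375 and below 0 in SK-MEL-28 (18.3% of all genes), with a median of -0.25. PLAT, the tissue plasminogen activator, had responses of 0.27 and -0.46. TNC, tenascin C, counted in the list of the dedifferentiated melanoma state and not in this one, had responses of 0.09 and -0.67. The 15 genes of actin and myosin had a median of 0.01.

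Of 25 genes of TGF-beta signalling 21 had a difference below 0 (52.4% of all genes), 13 stood above 0 in A375 and below 0 in SK-MEL-28 (18.3%), and the median was -0.28. The inhibitors ID1 and ID3, targets of BMP signals, had responses of 0.19 and -0.45, and of 0.23 and -0.35. The receptor TGFBR2 was lower in both lines (responses -0.37 and -1.01). In the WNT list 13 of 16 members lay below 0 (52.4% of all genes), with a median of -0.27. The receptor FZD4 had responses of 0.47 and -0.33, the inhibitor SFRP1 of 0.41 and -0.28, and the nuclear partner LEF1 of 0.15 and -0.49. DKK1, a secreted inhibitor, was lower in both lines, with a CPM of 308 and 168 in A375 and of 25.8 and 7.53 in SK-MEL-28 (difference -0.89, interval -1.13 to -0.68).

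Feedback inhibitors of the ERK pathway, on which BRAF-mutant melanoma depends, were among the small groups with a shared sign. All 5 Sprouty and SPRED genes had a difference below 0 (52.4% of all genes), with a median of -0.51. In 4 of them the response was above 0 in A375 and below 0 in SK-MEL-28 (18.3% of all genes). SPRY2 had a CPM of 210 and 259 in A375 and of 117 and 98.0 in SK-MEL-28 (difference -0.56, interval -0.64 to -0.47). DUSP6, the ERK phosphatase, had responses of 0.27 and -0.39 and ETV1, an ERK-dependent factor, of 0.08 and -0.60. The 5 phosphatases as a group had a median of -0.10.

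In the melanocyte lineage list 15 of 20 members had a difference below 0 (52.4% of all genes), with a median of -0.17. MITF, the master factor of the lineage, went the other way, with an FPKM of 5.68 and 5.48 in A375 and of 60.6 and 75.8 in SK-MEL-28 (difference 0.38, interval 0.26 to 0.50). SOX10, the lineage factor, had an FPKM of 80.1 and 118 in A375 and of 127 and 146 in SK-MEL-28. S100B and ZEB2 were higher with siLINC01291 in A375 (responses 0.71 and 0.60) and level in SK-MEL-28 (-0.02 and -0.04). The 4 genes of pigment and the melanosome had a median of 0.02, and no member's interval excluded 0. FOXD3, a neural crest factor named after its values were seen, had responses of 0.57 and -0.44 at a low CPM of 3.24 to 7.24.

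Among smaller lists, 12 of the 13 mitochondrially encoded genes had a difference above 0 (47.6% of all genes), with median responses of -0.22 and -0.02. MT-ATP8 had a difference of 0.86 (A375 CPM 233 and 130, SK-MEL-28 CPM 330 and 333), but it overlaps MT-ATP6 on the same strand and its reads are uncertain. The 36 nuclear genes of the respiratory chain had a median of -0.05. Of 19 interferon genes 15 lay below 0 (52.4% of all genes) with a median of -0.22. The interval lay below 0 for 4 of the 19, a share near that of all genes (2629 of 10988). Of the cytokine genes, IL24 had responses of 0.21 and -0.86, and TNFAIP3, an NF-kB inhibitor, of -0.10 and 0.73. In the receptor tyrosine kinase and IGF list, the adaptor GRB10 had responses of -0.26 and 0.57.

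The 21 genes of ER chaperones and the unfolded protein response had a median difference of 0.01, near that of all genes. XBP1, its transcription factor, had responses of -0.54 and 0.25, and HERPUD1, an ER membrane protein of degradation, of -0.73 and 0.11. The chaperone HSPA5 (BiP) stood at -0.17 and 0.13. The lists of heat shock (median -0.05), hypoxia and glycolysis (-0.07), sterol and fatty acid synthesis (0.12), p53 targets (-0.01) and YAP, TAZ and TEAD (-0.10) are of the same small size. In the p53 list, TP53INP1 (-0.95) and PLK3 (0.85) went to opposite sides. WWTR1, which codes for TAZ, was lower in both lines and by more in SK-MEL-28, with a CPM of 415 and 184 in A375 and of 245 and 61.9 in SK-MEL-28 (difference -0.81, interval -0.90 to -0.72).

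**Figure D5:**
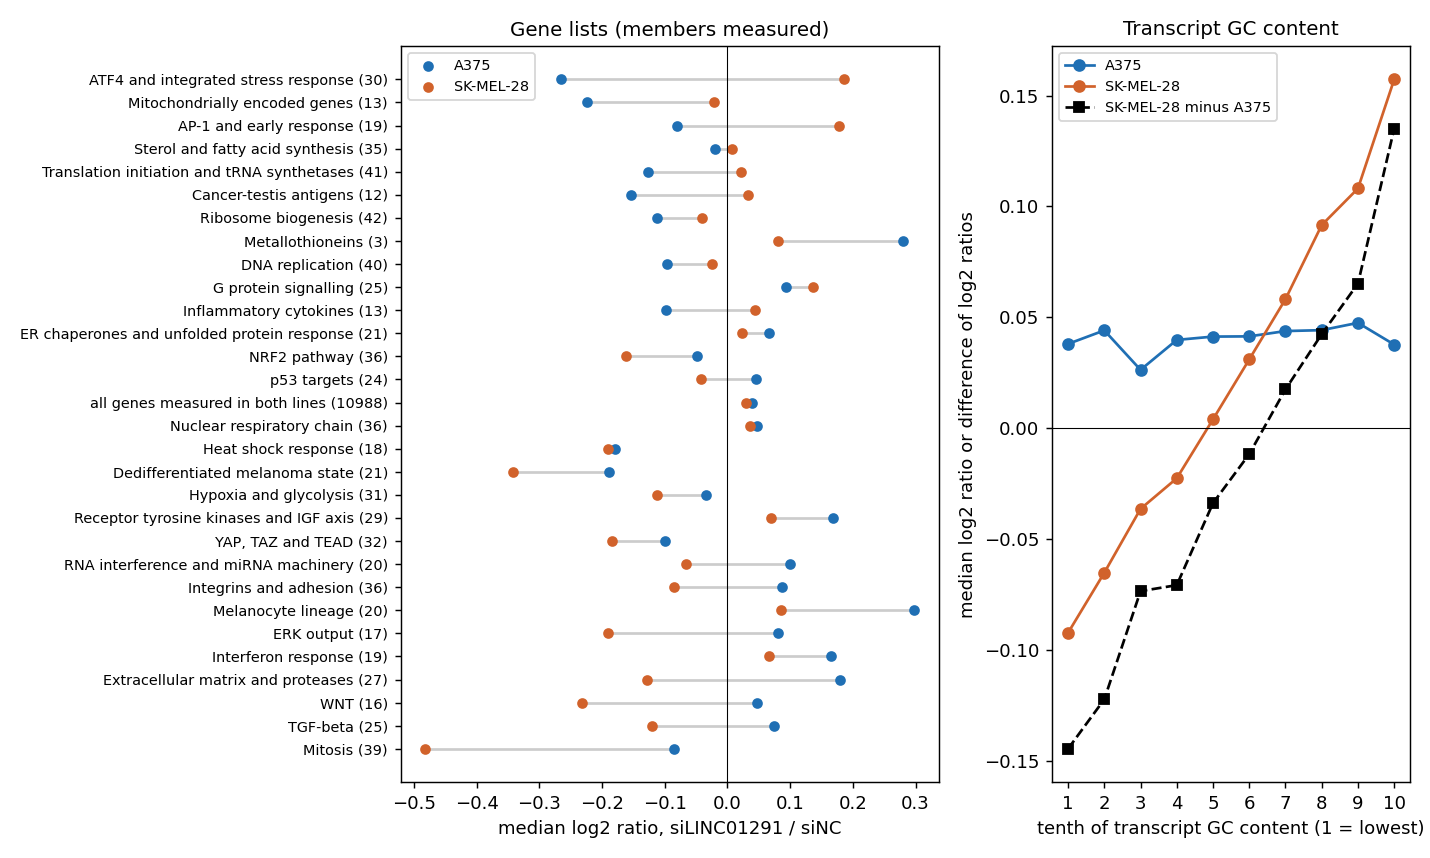
Left, median response (x axis, log2 ratio of siLINC01291 to siNC) of each gene list in A375 (blue) and SK-MEL-28 (orange), with the number of measured members; right, median response and median difference (y axis) in bins of genes ordered by transcript GC content (x axis). The ATF4 list shows the widest gap upwards (-0.27 to 0.19) and the mitosis list the widest downwards (-0.08 to -0.48), and the SK-MEL-28 median climbs with GC content from -0.09 to 0.16 while that of A375 is 0.04 at both ends.

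Base composition moved with the difference. Over 9439 genes with an annotated principal transcript, Spearman's rho between the difference and transcript GC content was 0.35 (Pearson's r 0.32), a description across genes of the same 4 libraries. From the lowest to the highest of 10 bins of GC content, the median difference went from -0.14 to 0.14. The median GC content was 48.3% over all these genes, 51.7% in the ATF4 list and 43.1% in the mitosis list. After the median of its bin was taken from each gene, an alternative chosen after seeing the data, the list medians were 0.59 and -0.34. The part of base composition in single genes was not tested.

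Words of siRNA seed length in 3′ UTRs were searched because earlier results of these data had pointed to them. The words are TCTATGA and CTATGAA, which overlap in TCTATGAA, and TCGGAGA. A principal transcript per gene was read in the sense direction (GENCODE 29, GRCh38), 9439 measured genes in all. The siRNA sequences were not used here. LINC01291 itself holds TCTATGAA in 3 of 3 annotated transcripts. Genes with TCTATGA or CTATGAA (1358, 14.4% of those searched) had median responses of -0.04 (A375) and -0.15 (SK-MEL-28), and the 336 with TCTATGAA of -0.14 and -0.27, against 0.05 and 0.04 in the 7939 genes with none of the words. The difference was below 0 in 69.7% of the 1358 (median -0.12) and in 51.6% of the genes with none (median -0.01). Genes of low GC content had medians of like size, -0.14 in the lowest bin and -0.12 in the next. Genes with and without the words were not compared at like GC content, so the part of base composition was not tested.

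TCTATGA or CTATGAA, held by 14.4% of all searched genes, was also counted in the genes that shifted down in SK-MEL-28 only. Of the 9 that could be searched, 7 (77.8%) hold it (BIRC3, KHDRBS3, PPID, RDH10, SLC18B1, TGFA and UBASH3B), whereas PRNP and ENC1 do not. All 9 also stood below siNC in A375, by less than the class limit. In the other classes of 1-line shifts few genes could be searched. The word is held by 1 of 2 lower in A375 only (ALDH1L2) and 1 of 3 higher in A375 only (SHC4). It is also held by 1 of 14 higher in SK-MEL-28 only (TMEM164). Of 30 searched genes with a difference of at least 2-fold downwards 8 (26.7%) hold it, and of 27 upwards none. The words came from earlier results of these data, so these counts are a description only. Sites from genes described above are shown with the word in capitals, each as 30 bases of the transcript strand.
UBASH3B: ttgtttgttttTCTATGAtaatttaaaata
PPID: aaaggtttttgTCTATGAAtatgatcccta
SLC18B1: tagaaacattaCTATGAAatcagtttttaa
BIRC3: tggttccagttTCTATGAcctaccttgggg
ITGA2: agttttaaaagTCTATGAtctggacttcct
WWTR1: aaataattctaTCTATGAAactgaaggatg
DKK1: tataatagatgCTATGAAaaccttttatga
SLC7A11: attaggtactaTCTATGAAtgtatttaaat
They lie at chr11:122811021-122811050 (plus strand), chr4:158709650-158709679 (minus), chr6:132769796-132769825 (minus), chr11:102338801-102338830 (plus), chr5:53092289-53092318 (plus), chr3:149519408-149519437 (minus), chr10:52316840-52316869 (plus) and chr4:138165040-138165069 (minus), in the order shown. Genes with such a site did not all respond alike. ITGA2 was higher with siLINC01291 in A375 (0.52) and lower in SK-MEL-28 (-0.67), whereas WWTR1, DKK1 and SLC7A11 were lower in both lines, the first 2 by more in SK-MEL-28 and SLC7A11 by more in A375. TMEM164 holds the word and was higher in SK-MEL-28. A match is a description of the letters and not a shown target.

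TCGGAGA went with higher responses in both lines. The 176 genes that hold it had median responses of 0.15 (A375) and 0.20 (SK-MEL-28) and a median difference of 0.06, and 9.66% of them had a difference of at least 1.5-fold upwards, against 2.14% of all searched genes. NOLC1, CHST14 and POLR2D, described above, hold it, as does BICD2; ENC1 and POU3F2 also hold it and had differences of -1.08 and -1.10.
NOLC1: aagggtgatgaTCGGAGActacttactttc
CHST14: ctgcctgtcatTCGGAGAaactctggctct
BICD2: tagctttagacTCGGAGAtgagtgctttga
POLR2D: atcactgctgcTCGGAGAaaccacatcccc
They lie at chr10:102162293-102162322 (plus), chr15:40472404-40472433 (plus), chr9:92712922-92712951 (minus) and chr2:127848068-127848097 (minus), and all 4 genes were higher with siLINC01291 in both lines and by more in SK-MEL-28. Without the genes that hold any of the words, an alternative chosen after seeing the data, the median difference was 0.55 in the ATF4 list and -0.41 in the mitosis list.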

How the data were processed

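RNA sequencing values of 4 libraries were used. Per the labels' protocols, oligo(dT) enrichment came first. Trimming and duplicate removal used fastp, quality checks FastQC, and after a ribosomal RNA filter alignment used HISAT2, assembly StringTie and counting HTSeq. Removal of duplicates can lower the counts of abundant genes. The submitters' processing notes name hg19, DESeq2 and edgeR without a role. Strand setting and annotation release are not given in the sources used here. Coordinates are from GENCODE 29 or RefSeq on GRCh38.

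Deposited counts are whole numbers for each gene. The authors' deposited CPM and TPM are scaled to a fixed total within each library and were not used for a comparison. CPM printed here are counts over the library total. Factors of TMM scaling, an alternative below, were 1.05 and 1.09 in A375 (siNC, siLINC01291) and 0.92 and 0.95 in SK-MEL-28. Levels compared between the lines, such as those called level or close, therefore depend on the scaling. The authors' deposited FPKM are scaled to gene length and library size, and were used for the expression filter and 1 alternative.

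Responses were computed with edgeR 4.0.16 (R 4.3.3) at normalization factors of 1 and a prior count of 2. The 4 libraries leave no residual degree of freedom, so no test was run. Intervals are exact binomial within a line and exact conditional between lines. UTRs under 50 bases were not searched. Scripts (Python 3.11.15, numpy 2.4.6, scipy 1.17.1, pandas 2.3.3, matplotlib 3.10.9) were tested on simulated data.

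The compared genes and the 29 gene lists were chosen with earlier results of these data known. Genes were named by a rule: LINC01291, SRXN1 and CHAC1; the 15 highest and 15 lowest differences at an FPKM of at least 5 with a proper symbol; up to 6 per class of 1-line or opposite shifts; and up to 4 members per list. Further list members, ADM2, AHR, TAF10, NSFP1, SHC4, XYLT1, DBNDD1, TGFA, RDH10, KHDRBS3, ENC1 and FOXD3 were named after their values were seen. Alternatives were TMM and DESeq2 (1.42.0) scaling, prior counts of 0.5 and 10, an FPKM filter of 5 or none, log2(FPKM + 1), and, added after seeing the data, subtraction of the GC trend and removal of genes with the searched words.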

Additional observations from a re-analysis of the deposited data

Results flagged for a closer look

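The genes and the list below had responses of opposite sign in the 2 lines; the difference was not tested, since each group is 1 library. SRXN1 had a difference of 2.82, ADM2 of 1.61, TAF10 of 1.64 and MAGEA2B of 1.77, all lower in A375 and higher in SK-MEL-28. ADAM19 (-1.76) and NRCAM (-1.52) went the other way. The ATF4 and integrated stress response list had a median difference of 0.58, with medians on either side of 0. NSFP1 (7.32), a pseudogene, and the microRNA genes MIR7111 (2.48; counts of 18 and 6 in A375 and 4 and 11 in SK-MEL-28) and MIR6775 (1.57; counts of 14 and 7, and of 6 and 11) rest on few reads. MIR7111 lies within the ribosomal protein gene RPL10A and MIR6775 within SLC7A5, a member of the ATF4 list, both on the same strand as the host, so their reads are uncertain.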

How the results depend on the processing

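Of the alternatives run, TMM scaling, DESeq2 size factors and a prior count of 0.5 kept all 5 counts of genes within 1.5 times their main values (107 and 94 genes with a difference of at least 2-fold upwards and downwards, 62 shifted in SK-MEL-28 only, 23 in A375 only and 33 in opposite directions). In the same order, the counts were 42, 46, 27, 7 and 10 with a prior count of 10; 18, 12, 12, 2 and 3 at an FPKM of at least 5; 685, 685, 414, 203 and 256 without an expression filter; and 55, 31, 18, 7 and 16 with log2(FPKM + 1). After subtraction of the GC trend, which covers only genes with an annotated transcript, 26 and 30 genes passed the 2-fold limits upwards and downwards. Before subtraction these same genes gave 27 and 30, and 54 of those 57 calls were kept. Of the 176 named genes, 34 lay outside their counting interval with log2(FPKM + 1) (SRXN1 to 1.91) and 1 with a prior count of 10 (NSFP1). No sign changed among them under the other scalings, prior counts and filters or log2(FPKM + 1), where the filter at an FPKM of 5 covers 123 of them; GC subtraction and word removal were run for counts and lists only. List medians kept their sign under the alternatives run except 3 near 0: the NRF2 and p53 lists, both at -0.01, lay just above 0 with TMM scaling, and the cytokine list, at 0.01, lay just below 0 with a prior count of 10, at an FPKM of at least 5 and with log2(FPKM + 1). Removal of the word-bearing genes takes out members without altering the others' differences, so it bears on list medians only. No paired analysis was possible because each group is 1 library and no difference was tested; leaving out a library would remove its group. Depth limits scarce transcripts: 59 of the 107 and 39 of the 94 genes had at most 10 counts in some library.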
